A study of Taeniopygia guttata with 39 samples.

Results

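The transcripts described here are the 150 rows, of 26061 on a microarray, whose group means were lowest at 7 and 14 days of testosterone in HVC of female canaries. For each row the score was the lowest mean of the 5 groups labelled non-singing (control, 1 h, 3 h, 8 h and 3 days) minus the higher of the 2 means of the groups labelled singing (7 and 14 days), and the 150 highest scores were taken. The members' scores ran from 0.24 to 0.82 log2 units with a median of 0.30. Because those means chose the members, the low levels at 7 and 14 days are a description and carry no test.

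HVC is a forebrain nucleus of songbirds that drives learned song through its projections to motor and striatal song nuclei. Its neurons carry androgen receptors. Female canaries sing little on short days, and testosterone is known to bring on song in them and to enlarge HVC.

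Total RNA of HVC, dissected from brain sections, was measured on 39 Affymetrix arrays labelled as biological replicates. All birds were adult non-breeding females kept at 9 h of light and 15 h of dark, and each had been given a Silastic tube of 7 mm, placed subcutaneously on the breast. It was empty in 5 control birds and held testosterone for 1 h in 6 birds, 3 h in 5, 8 h in 5, 3 days in 6, 7 days in 6 and 14 days in 6. The singing label belongs to all birds at 7 and 14 days and to no other bird, so singing and duration cannot be told apart. The labels give the species as zebra finch, whose transcripts name the rows, while the design text speaks of canaries.

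One array stood apart before any result. The second replicate at 3 h had a median correlation with the other arrays of 0.89, where every other array had at least 0.96, and the rule left it out; the tests below also leave it out and use 38 arrays unless stated. Array medians ran from 7.49 to 7.91 on the deposited log2 scale, so each array was centred on its own median, with the mean of the medians added back, and "level" below means this centred log2 value. Neuronal SNAP25 had group means of 11.8 to 12.1 and GAD1 of 10.62 to 10.96, and the astrocyte genes AQP4 and SLC1A3 of 7.92 to 8.57 and 8.40 to 8.94. The other defining markers of brain cell types were not used here. These are bulk samples, in which fewer cells of a type and less RNA per cell cannot be told apart.

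Of the 150 members, 11 had an official gene symbol, against 2244 of all 26061 rows. The other 139 are known here only by transcript identifiers. Zebra finch Ensembl identifiers made up 52.7% of the members and 45.8% of all rows, and predicted RefSeq messages 27.3% against 40.2%. Identifiers of cDNA clones made up 8.0% against 3.42%, and Ensembl identifiers of other species 9.33% against 6.46%. In mean brightness the members spread over the whole range, with 20, 28, 38, 34 and 30 of them in the 5 equal bins from the dimmest to the brightest rows. A low level was thus not a shared property of the members. At the threshold, the last member had a score of 0.245 and the first row outside it, ARHGAP31 (a GTPase-activating protein), 0.244. The next symbol rows outside were RALYL (an RNA-binding protein) and ST8SIA5 (a sialyltransferase), both at 0.239.

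The 11 named members fall into receptors and signalling proteins (GRM5, MC4R, JAK2, RASD2), proteins of the cell surface and matrix (SLITRK6, ADAMTS20), cytoskeleton and cell cycle (MAP7, CCND2), and an enzyme and nuclear proteins (DHRS12, SETD7, HNF4A). The mean of the singing group means lay below that of the non-singing group means by 0.33 to 0.97 log2 units across them. The order below follows these roles, with values for every bird of a group of 5 or fewer and the lowest, median and highest for groups of 6. Counts of singing birds below all non-singing birds, or the reverse, come from values that the rule used. They are descriptions and were not summarised over all rows.

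GRM5 encodes a metabotropic glutamate receptor that signals through phospholipase C and takes part in synaptic plasticity. The 5 control birds had levels of 7.37, 7.36, 7.85, 7.74 and 7.68, and the 6 birds at 1 h ran from 7.32 through a median of 7.47 to 8.12. Levels were 7.31, 7.59, 7.04 and 7.78 at 3 h and 7.38, 7.86, 7.60, 7.71 and 7.77 at 8 h. The 3-day birds, the highest group, ran from 7.56 through 7.79 to 8.01. Apart from 1 bird at 3 h, all non-singing birds were thus above 7.3. At 7 days GRM5 ran from 6.60 through 7.04 to 7.51, and at 14 days from 6.75 through 6.82 to 6.97. All 6 birds at 14 days and 9 of 12 singing birds were below every non-singing bird in the fit, the most among the named members, while 18 of 26 non-singing birds were above every singing bird, against 23 for DHRS12. The left-out 3-h bird, at 6.64, was below all birds at 14 days. The mean fell from 7.81 ± 0.15 (SD, n = 6) at 3 days to 7.06 ± 0.30 at 7 days and 6.85 ± 0.10 at 14 days, a step that the rule itself used.

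JAK2 encodes the tyrosine kinase behind receptors for prolactin, growth hormone and several cytokines. Control levels were 5.18, 4.80, 5.21, 5.27 and 5.36, and the 1-h birds ran from 4.98 through 5.13 to 5.26. The 3-h birds were at 5.28, 5.31, 5.04 and 5.17, and the 8-h birds at 5.29, 5.19, 4.77, 5.20 and 5.35. At 3 days the range was widest, from 4.84 through 5.44 to 5.88. The non-singing groups overlapped one another almost completely apart from that upper edge. The 7-day birds ran from 4.39 through 4.72 to 5.17, and the 14-day birds from 4.51 through 4.79 to 4.97. Here 6 of 12 singing birds were below all 26 non-singing birds, and 17 of 26 non-singing birds were above every singing bird. The other non-singing birds, which came from all 5 of their groups, lay within the singing range. JAK2 is one of the dimmer named members, brighter than 12.6% of all rows.

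RASD2 encodes Rhes, a small GTP-binding protein that in mammals is most abundant in the striatum. In control birds it was at 7.99, 7.95, 8.40, 8.24 and 8.49, and at 1 h it ran from 7.46 through 7.81 to 8.22. Birds at 3 h were spread most, at 8.07, 7.65, 7.28 and 9.17. Those at 8 h were at 7.77, 8.24, 7.38, 8.01 and 8.16. The SD at 3 h of 0.82 was more than that of any other group for this gene, so its mean there, 8.04, is poorly set. The 3-day birds ran from 7.53 through 8.38 to 8.52, the 7-day birds from 7.24 through 7.50 to 7.93, and the 14-day birds from 6.97 through 7.32 to 7.56. Of the singing birds 5 of 12 were below all non-singing birds.

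MC4R encodes a melanocortin receptor that in mammals acts in the hypothalamus on food intake. It had the smallest difference between the means of singing and non-singing groups among the named members, −0.33 log2 units. Singing birds ran from 4.75 through a median of 5.10 to 5.52 and non-singing birds from 4.88 through 5.50 to 5.93, so 1 of 12 singing birds lay below all of the others. At these dim levels the 2 sets of birds overlapped over most of their range.

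SLITRK6 encodes a transmembrane protein of neurons that shapes neurite growth and synapse formation. Control birds were at 4.03, 3.96, 4.68, 3.94 and 4.37, and 1-h birds ran from 3.19 through 3.73 to 4.50. At 3 h the levels were 4.23, 3.41, 4.17 and 3.91, and at 8 h 4.14, 3.82, 4.39, 4.11 and 4.16. The 3-day birds ran from 3.60 through 3.94 to 5.45. The lowest of the non-singing birds were those at 1 h. Levels at 7 days ran from 2.86 through 3.22 to 3.71, and at 14 days from 3.20 through 3.35 to 3.89. These means, 3.24 and 3.44, are at levels of the dimmest 5% of rows on every array, whose upper bound ran from 3.48 to 3.69. The difference is thus at the low end of what the arrays measure.

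ADAMTS20 encodes a secreted metalloprotease that in mice cleaves the matrix proteoglycan versican. It showed the largest drop among the named members, −0.97 log2 units between the means of singing and non-singing groups. The control mean was 7.38 ± 0.25 (SD, n = 5) and the 1-h mean 7.07 ± 0.26 (n = 6). After 3 h it was 7.97 ± 0.48 (n = 4), after 8 h 7.80 ± 0.29 (n = 5) and after 3 days 7.52 ± 0.39 (n = 6). Before singing, then, ADAMTS20 stood highest at 3 h and lowest at 1 h. It reached 6.36 ± 0.29 (n = 6) at 7 days and 6.81 ± 0.26 (n = 6) at 14 days. The 12 singing birds ran from 6.04 through 6.61 to 7.26 and the non-singing birds from 6.62 through 7.52 to 8.51. By limma the change from 7 to 14 days was 0.45 ± 0.18 (SE, adjusted p = 0.063) and that from control to 3 h 0.59 ± 0.21 (adjusted p = 0.063), both short of the threshold of 0.05.

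MAP7 encodes a microtubule-binding protein that recruits kinesin motors. Control birds had levels of 7.85, 7.57, 7.84, 8.09 and 8.10, and 1-h birds ran from 6.87 through 7.23 to 7.70. Levels were 7.56, 7.19, 7.53 and 7.92 at 3 h and 7.67, 7.82, 7.44, 7.77 and 8.80 at 8 h. Birds at 3 days ran from 7.22 through 7.77 to 7.92. The 1-h birds stood low among the non-singing birds, and 1 bird at 8 h stood far above the rest. Singing birds ran from 6.59 through 6.85 to 7.13 at 7 days and from 6.57 through 6.94 to 7.41 at 14 days, 6 of 12 below all non-singing birds.

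CCND2 encodes a D-type cyclin that drives cells into the division cycle. The controls were at 7.90, 6.03, 7.72, 7.67 and 7.45, and the 1-h birds ran from 6.99 through 7.56 to 7.84. At 3 h its levels were 7.30, 8.07, 7.35 and 7.28, and at 8 h 7.70, 7.50, 7.14, 7.56 and 6.46. The 3-day birds ran from 6.95 through 7.22 to 7.98. One control bird thus had the lowest level of all 38. The 7-day birds ran from 6.35 through 7.09 to 7.45 and the 14-day birds from 6.14 through 7.03 to 7.49. No singing bird was below all non-singing birds, and the groups overlapped throughout.

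DHRS12, a short-chain dehydrogenase/reductase, had the highest score of the named members, 0.50, and was the brightest of them. In control birds it was at 10.65, 10.26, 10.10, 10.92 and 10.40, and at 1 h it ran from 9.71 through 10.21 to 10.57. The 3-h birds were at 10.25, 10.09, 10.22 and 9.999, close together, and the 8-h birds at 10.23, 10.21, 9.66, 10.22 and 11.09. At 3 days it ran from 9.57 through 10.14 to 10.55. Only a few non-singing birds came below 9.8. The 7-day birds ran from 9.41 through 9.46 to 9.71 and the 14-day birds from 9.33 through 9.66 to 9.79. All singing birds were below the non-singing median of 10.23, and 6 of 12 were below every non-singing bird.

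SETD7 encodes a lysine methyltransferase of histones and other proteins. Its control levels were 7.67, 7.73, 8.06, 7.93 and 8.01, and the 1-h birds ran from 6.94 through 8.06 to 8.29. At 3 h the birds were at 8.24, 8.08, 8.03 and 8.25, and at 8 h at 8.28, 8.17, 8.11, 8.28 and 8.31. The 3-day range was 7.87 through 8.02 to 8.44. The 3-h and 8-h birds were all above 8 and tightly grouped. Levels ran from 6.82 through 7.65 to 7.90 at 7 days and from 6.73 through 7.41 to 7.60 at 14 days. Because 1 bird at 1 h was at 6.94, 2 of 12 singing birds lay below all non-singing birds.

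HNF4A encodes a nuclear receptor best known as a master regulator in liver. Its levels were dim, from 3.66 through a median of 4.02 to 4.58 in singing birds and from 3.95 through 4.48 to 5.02 in non-singing birds. Of the singing birds 5 of 12 were below all non-singing birds.

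**Figure D1:**
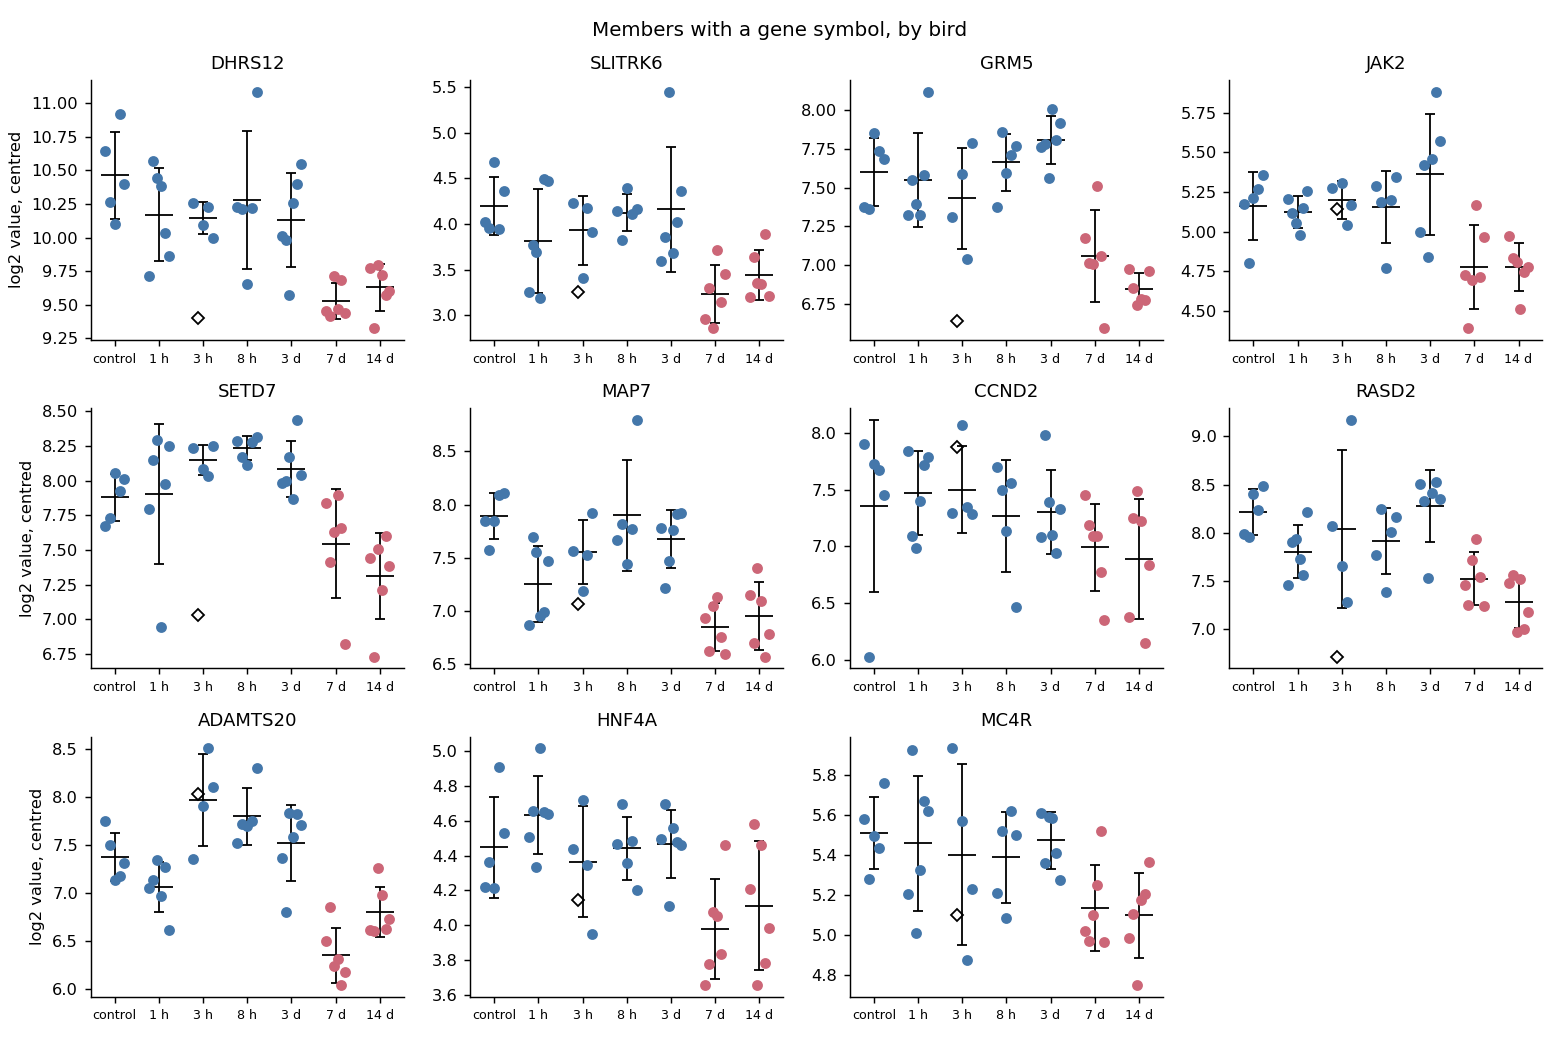
Centred log2 level of each named member in each bird, by group; blue points are birds labelled non-singing, red points birds labelled singing, the open diamond is the second 3-h replicate that was left out, and bars give the mean ± SD without it. Each panel has its own axis, which does not start at 0. The 14-day GRM5 birds, from 6.75 to 6.97, all lie below the lowest non-singing bird of the 38, while the CCND2 groups overlap.

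As a set, the members' differences between the singing and the non-singing groups ran from −1.66 to −0.33 log2 units with a median of −0.61, beside a median of −0.01 over all rows. All 150 passed the threshold in this contrast, in which 46.7% of all rows passed in either direction and 24.3% as lower; the rule used the same means, and nothing is read from the count. No row of the table had all 12 singing birds below all 26 non-singing birds, 0% of 26061, and so no member did. The median member had 5 of 12 singing birds below every non-singing bird, with a range over members of 0 to 11. This count per row was not summarised over all rows, and it comes from values that the rule used. The label of lowest in both singing groups therefore holds for the group means and not for every bird.

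The left-out array bears on this, since the rule did not use it. At 3 h its second replicate had members' levels a median of 0.71 log2 units below the mean of the other 4 birds, with 119 of 150 members lower. Over all rows the same array was a median of 0.17 higher, with 11101 of 26061 rows lower. It lay below both singing group means in 87 of 150 members (58.0%), where 37.6% of all rows did so. By the median over the members, this array labelled non-singing thus read as low as those labelled singing. It was also the array with the lowest correlation with the others (0.89), and 31 of 150 members were higher in it than the mean of the other 3-h birds. With it, 95 of the 150 rows would have been among the 150 highest scores, and the median difference between singing and non-singing groups would have been −0.56.

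The members' level in each bird was summarised as the median, over the 150 rows, of the deviation from the row's mean over the 38 birds. The 5 control birds averaged 0.22 ± 0.16 (SD), the 6 birds at 1 h 0.00 ± 0.17 and the 4 at 3 h 0.09 ± 0.08. At 8 h the mean was 0.33 ± 0.07 (n = 5) and at 3 days 0.28 ± 0.10 (n = 6). These gave way to −0.36 ± 0.18 (n = 6) at 7 days and −0.45 ± 0.10 (n = 6) at 14 days. The 7-day birds spread most, from −0.65 to −0.11. The highest of them lay above the lowest 1-h bird, at −0.21, so the singing and non-singing birds overlapped on this scale. On the values as deposited they did not: singing birds ran from −0.45 to −0.21 and the lowest non-singing bird, at 1 h, was at −0.03. The rule chose the rows for low means at 7 and 14 days, so the distance between the labels is no test on either scale. The left-out 3-h bird was at −0.65 centred and −0.58 as deposited, among or below the lowest singing birds on both scales.

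**Figure D2:**
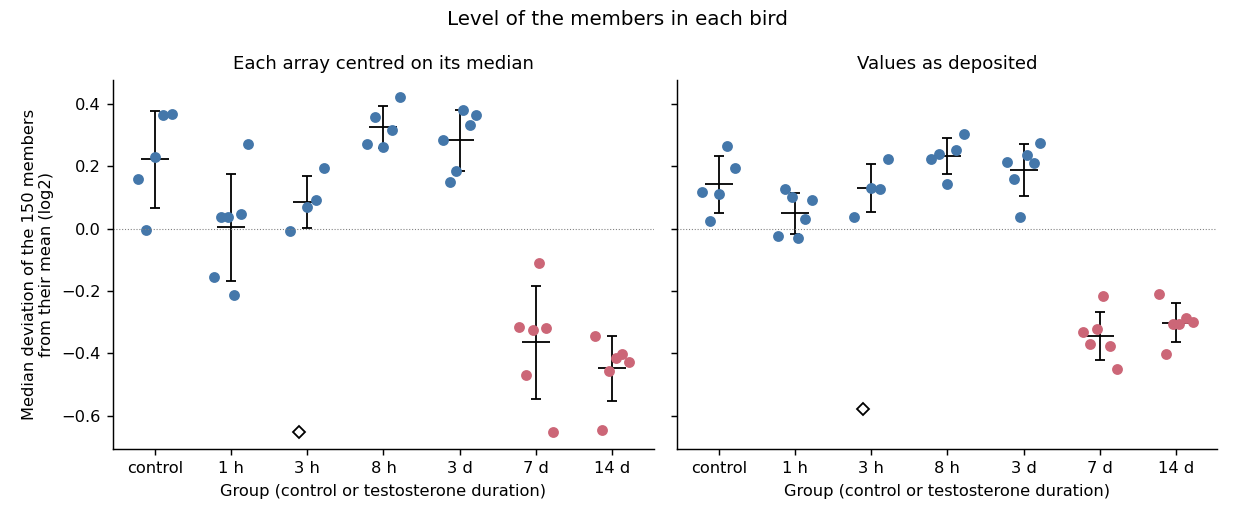
Median deviation of the 150 members from their mean in each bird, in log2 units, for centred arrays (left) and values as deposited (right); blue points are non-singing birds, red points singing birds, the open diamond the left-out 3-h bird, and bars the mean ± SD without it. Without the left-out bird, singing and non-singing birds overlap on the left and do not on the right. The members were chosen for low means in the singing groups, so this separation is no test. On the left the highest singing bird is at −0.11 and the lowest other non-singing bird at −0.21. The left-out bird, also labelled non-singing, is at −0.58 on the right, below every singing bird.

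The median of the array moved with the members' level. With group means removed, the level across the 38 arrays correlated with the array median at −0.87 (Pearson) and −0.71 (Spearman) on the centred scale, and at a Pearson value of −0.82 without the 2 arrays farthest from the middle. As deposited, the values were −0.46 (Pearson) and −0.31 (Spearman), and −0.42 (Pearson) without those arrays. Centring subtracts the same median from every row of an array, so the 2 quantities share it; the correlation is a description and has no p. Array medians averaged 7.59 in control, 7.58 at 8 h, 7.57 at 3 days, 7.71 at 1 h and at 3 h, 7.69 at 7 days and 7.82 at 14 days. Their part in the members' levels was not tested.

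**Figure D3:**
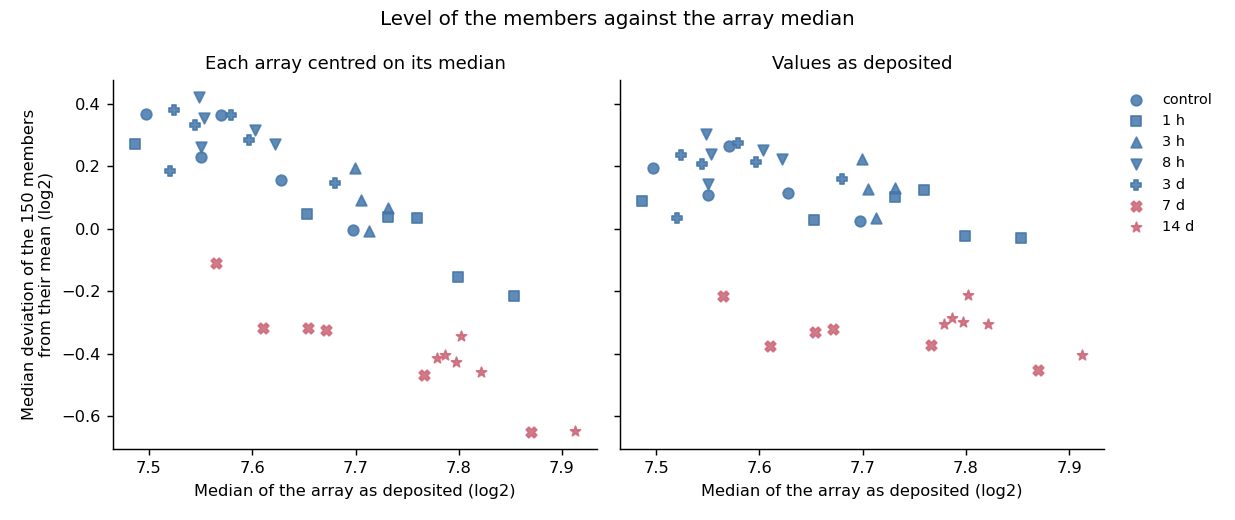
Median deviation of the 150 members in each of 38 birds against the median of its array as deposited, both in log2 units, for centred arrays (left) and values as deposited (right); symbols give the group, blue the non-singing and red the singing label. Within groups the centred level falls as the array median rises (r = −0.87 with group means removed). The members were chosen for low means in the singing groups, so the distance between red and blue points is no test.

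The members also moved together within groups. The mean correlation between pairs of members, with group means removed, was 0.22 over the 38 arrays, against 0.00 over all rows. Among the 150 rows chosen by the same rule with the sign turned, which are highest in both singing groups, it was 0.09. As deposited the order changed, to 0.08 for the members, 0.06 for all rows and 0.21 for the mirrored rows. The members' shared movement above that of all rows thus depended on the scale, and no test was made of it.

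A bird can be set against rows that were chosen without its own values. The other birds of its group still shaped the rows and the means, so the reading is a description and no test. For each bird the 150 rows were chosen again from the other arrays, which kept 115 to 149 of the members, and the share of those rows in which the bird was nearer the singing than the non-singing mean was counted. This check was added after the levels by bird had been seen. The 14-day birds were nearer the singing mean in 82.0% to 94.0% of rows, and 8-h birds in 7.33% to 12.7%. The 3-day birds were likewise low, at 4.67% to 20.0%, and control birds ran from 4.0% to 36.7%. All birds of these 4 groups lay on the side of their label, which the rule favours through the other birds of each group. The same share was not taken over all rows. At 7 days 5 birds were between 70.7% and 90.7%, and replicate 4 was at 33.3%. At 1 h replicates 1 and 4 were at 66.7% and 81.3%, and the other 4 birds between 20.7% and 39.3%. The 4 birds at 3 h in the fit ran from 24.7% to 45.3%, and the left-out bird reached 68.7%. That 7-day bird had the lowest array median of its group, 7.57, and those 1-h birds the highest of theirs, 7.80 and 7.85; the part of the array median in these readings was not tested. On the values as deposited the same 3 birds were at 44.0%, 56.7% and 64.7%.

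**Figure D4:**
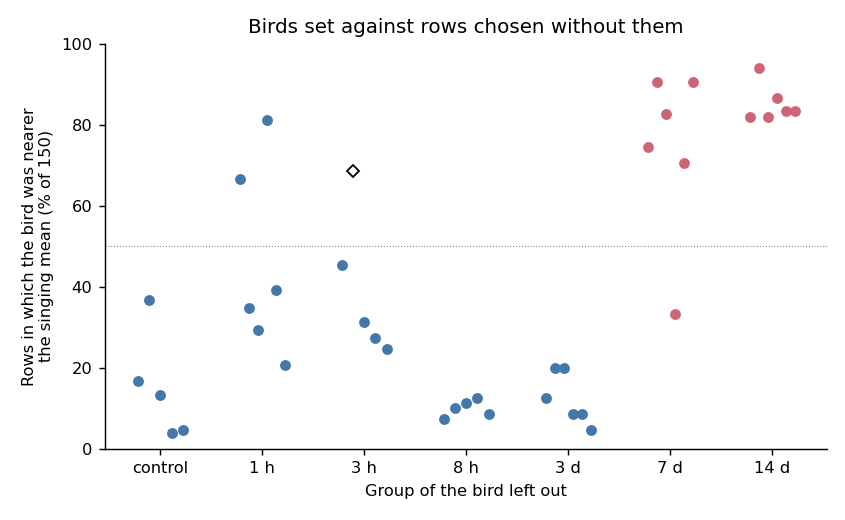
Share of 150 rows, in %, in which a bird was nearer the singing than the non-singing mean, with rows and means taken from the other birds; 1 point per bird, blue for non-singing, red for singing, open diamond for the left-out 3-h bird, dotted line at 50%. All 14-day birds are at 82.0% or more and all 8-h and 3-day birds at 20.0% or less, while 1 7-day bird and 2 1-h birds lie on the other side of the line from the rest of their group. The other birds of each group shaped the rows and means, so the shares are no test.

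The comparisons among the non-singing groups and between the 2 singing groups ask how the members behaved before and after the step that chose them. The rule takes a minimum over one set of groups and a maximum over the other, which favours rows with like levels inside each set, so a low share of members called is in part built in. The rule itself sets no direction for these differences. The members' level moved with the array median, though, which was higher on average at 1 h and 3 h than in control, at 8 h and at 3 days. The part of the array median in the direction was not tested. All calls are from limma, at a Benjamini-Hochberg adjusted p under 0.05 over 26061 rows.

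At 1 h the median member differed from controls by −0.20 log2 units, beside 0.00 over all rows. The difference was below 0 in 124 of 150 members and in 13086 of 26061 rows. As deposited the medians were −0.08 and 0.12. Of the 150, 18 (12%) fell and none rose, where 16.5% of all rows passed, 9.65% as lower and 6.86% as higher. The 18 changes ran from −0.94 to −0.30. MAP7 was the only named member among them, with a change of −0.64 ± 0.19 (SE; limma adjusted p = 0.023). Its mean went from 7.89 ± 0.22 (SD, n = 5) to 7.26 ± 0.36 (n = 6), with 5 of 6 1-h birds below the lowest control bird. That call was lost without control bird 4 or 5 (adjusted p = 0.058 and 0.072), without 1-h bird 1 or 4 (0.063 and 0.070), and when only the 2 groups entered the fit (0.063). Across those same settings the count of 18 became 8, 6, 9, 6 and 3, where 9.97%, 6.73%, 9.35%, 6.42% and 2.37% of all rows passed. It was 31 (20.7%) without 1-h bird 6, where 32.8% of all rows passed.

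At 3 h, 9 members (6.0%) passed against control, 5 lower and 4 higher, where 8.99% of all rows passed, 5.86% as lower and 3.13% as higher. The median difference was −0.13 against −0.01 over all rows, and as deposited 0.00 against 0.12. It was −0.20 without control bird 2, −0.08 without control bird 4 and −0.07 without control bird 5, and −0.28 with the left-out 3-h bird. After quantile normalisation it was −0.08. With the left-out 3-h bird in the fit, 35 members (23.3%) passed, 29 of them lower, where 22.8% of all rows passed, 13.1% as lower. Without 3-h bird 3, 5 members (3.33%) passed and 4.63% of all rows. No named member passed; ADAMTS20, the nearest, has its value above.

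At 8 h and 3 days the median member differed from controls by 0.10 and 0.06, beside 0.01 at both times over all rows. Without control bird 2 these medians were 0.03 and 0.00, and the 3-day median ran from there to 0.11 as 1 array was left out, with 0.03 without 3-day bird 4, 0.10 without control bird 4 or 5 and 0.11 without 3-day bird 2. Of the 150, 12 (8.0%) passed at 8 h, 9 higher and 3 lower, where 12.9% of all rows passed, 6.71% as higher and 6.2% as lower. The count was 6 (4.0%) with the left-out 3-h bird, where 6.89% of all rows passed, 6 with the title letter as a term (2.80%) and 20 with only the 2 groups in the fit (15.3%). At 3 days 2 (1.33%) passed, 1 in each direction, against 2.67% of all rows, 1.23% as higher and 1.44% as lower. Named members at 3 days differed from control by −0.34 (DHRS12) to 0.20 (GRM5), none past the threshold. The 4 comparisons share the 5 control arrays.

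The highest of the 7 group means was at 8 h for 67 members, at 3 days for 34, in control for 26, at 3 h for 21 and at 1 h for 2. Among the 5 non-singing groups the lowest mean was at 1 h for 82 members, at 3 h for 35, in control for 17, and at 8 h and 3 days for 8 each. Every row has a highest and a lowest group mean, so these counts describe the order of the means and are no test of a change. The same counts were not taken over all rows, so they are not shown to be particular to the members.

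**Figure D5:**
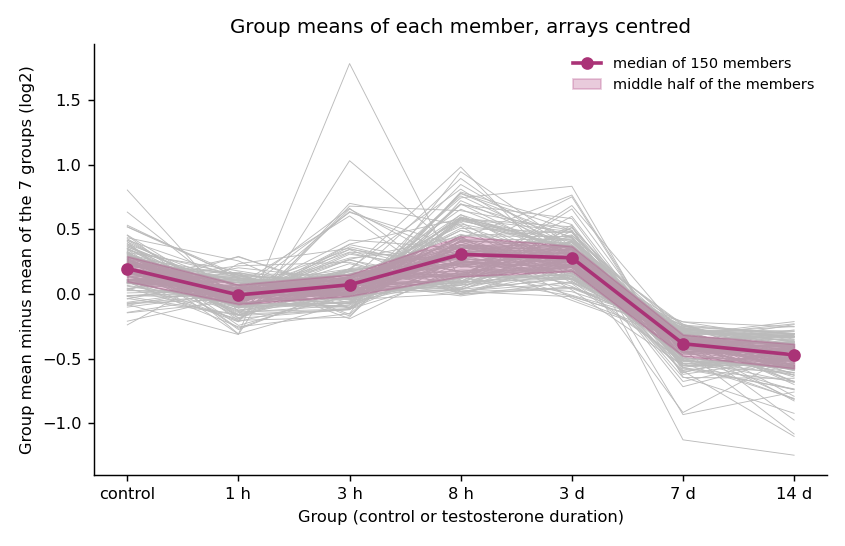
Group mean of each of the 150 members minus the mean of its 7 group means, in log2 units, with the members as grey lines, their median as the thick line and the range between the quartiles shaded. By the rule that chose the members the median line is lowest at 7 and 14 days. Its differences among the other groups are smaller, and most members did not pass a test of them.

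The difference between the mean of 1 h and 3 h and the mean of 8 h and 3 days, a contrast added after these levels had been seen, had a median of −0.24 over the members and −0.02 over all rows. It was below 0 in 135 of 150 members and in 13816 of 26061 rows. Of the 150, 59 (39.3%) passed, 58 as lower and 1 as higher, where 36.7% of all rows passed, 20.5% as lower. The share in either direction was near the background, and the direction was not evenly split. Of the named members MAP7 passed, with a difference of −0.39 ± 0.14 (SE; limma adjusted p = 0.028). It was no longer past the threshold on the values as deposited, where the difference was −0.25 (adjusted p = 0.12), with the letter of the title as a term (−0.46, adjusted p = 0.10) or with only the 4 groups in the fit (0.056). The MAP7 call was also lost without 8-h bird 5 (−0.27, adjusted p = 0.081), 3-h bird 3 (0.082), 1-h bird 1 (0.053) or 1-h bird 4 (0.052). On the deposited scale, where the medians were −0.10 and 0.12, 41 members (27.3%) passed, 36 as lower and 5 as higher, where 43.6% of all rows passed, 11.3% as lower and 32.3% as higher. With the title letter as a term 18 members (12%) passed, where 11.1% of all rows did.

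The numbers in the sample titles follow the same lines. Those of the 1-h, 3-h, 7-day and 14-day birds, the groups in which the members were lowest, follow closely on one another. The 8-h and 3-day birds have far lower numbers and the controls higher ones. What the numbers stand for was not stated. The numbers of the 8-h and 3-day birds overlap and each other group lies in a range of its own, so outside that pair number range and group cannot be told apart. Set against the 1-h and 3-h groups alone, whose numbers are nearest, the singing groups differed by a median of −0.46 log2 units, and set against 8 h and 3 days by −0.72. Both figures come from the means that the rule used.

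Between 7 and 14 days, 111 of 150 members were lower at 14 days, where 13673 of 26061 rows were. The median change was −0.06 over the members and −0.02 over all rows. The members' median was −0.13 without 7-day bird 6, −0.02 without 7-day bird 4 and −0.03 without 14-day bird 2. As deposited the median was 0.07 over the members and 0.11 over all rows, and 54 of 150 members and 9145 of 26061 rows were lower at 14 days. The sign of the median thus turned for members and all rows alike. On both scales the members' median stayed below that of all rows. By limma 1 of 150 members (0.667%) passed, as lower, where 21.6% of all rows passed and 9.97% as lower, and 8 members (5.33%) had an unadjusted p under 0.05, where 37.2% of all rows did. That member, ENSTGUT00000013510, chosen after its value was seen, fell by 0.39 from 7 to 14 days (adjusted p = 0.041), and it was a call that several alternatives did not give. No named member passed. GRM5 and SETD7 differed by −0.21 ± 0.13 and −0.23 ± 0.17 (SE), and SLITRK6 by 0.20 ± 0.24. Among members without a symbol the largest changes were −0.65 (ENSTGUT00000008874) and −0.62 (ENSGALT00000037167) downward and 0.23 (NM_001128097) and 0.19 (ENSTGUT00000004868) upward, none past the threshold.

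The letter at the end of most title numbers, L or R, varies within groups. Its meaning is not stated. With group as a covariate, limma called no member and no row (0% of 26061) between L and R; at an unadjusted p under 0.05 there were 6 members (4.0%) and 3.78% of all rows. The median difference over the members was 0.01.

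The gene lists give what surrounds the members. Of 110 genes of 17 lists with a matched row, 41 fell and 22 rose between non-singing and singing groups in the limma fit, and 2 were members (MAP7 and MC4R). Of all 2236 named genes 17.2% fell and 26.3% rose. Fell and rose here compare the mean of the singing group means with that of the non-singing group means. Such a call need not hold for each singing group against each non-singing group. On the values as deposited the listed genes split into 32 lower and 42 higher, and with the left-out 3-h bird into 31 and 15, so neither count stands for a direction free of scale. Centring moved the median of all rows by 0.12 log2 units, from 0.11 as deposited to −0.01. The lists were drawn up with earlier results of these data known.

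Glutamate signalling is the setting of GRM5. Of the 18 genes of the excitatory neuron list only 3 had a matched row, too few to stand for the cell type, and all 3 fell. They were GRIN2B and GRIA2, subunits of NMDA and AMPA receptors, with changes of −0.47 ± 0.09 and −0.34 ± 0.08 (SE), and CAMK2A, a synaptic kinase, with −0.28 ± 0.07. The 3 fell on each of the 4 scales and with the left-out 3-h bird in the fit. GRIN2B had group means of 11.07 in control, 10.79 at 1 h, 10.63 at 3 h, 11.57 at 8 h, 11.45 at 3 days, 10.77 at 7 days and 10.48 at 14 days. Its 7-day mean lay above its 3-h mean, so it is no member, although 3 h and 7 days did not differ beyond their spread. GRIA2 likewise had a mean of 10.92 at 7 days and 10.73 at 3 h. CAMK2A was at 12.85 at 7 days, above 12.68 at 1 h and 12.77 at 3 h. At 14 days GRIA2 (10.60) and CAMK2A (12.45) had their lowest group means. Of the general neuron list 3 of 6 fell (UCHL1 −1.14, ELAVL4 −0.28, GAP43 −0.17) and NEFM rose by 0.56. UCHL1 was dim, with group means from 2.37 to 4.93. ELAVL4 (9.07 at 7 days) was above its 1-h and 3-h means, 8.95 and 9.01. GAP43, at 8.59 at 7 days and 8.57 at 14 days, was above its means at 3 h (8.52) and 8 h (8.53).

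RASD2 and JAK2 belong to intracellular signalling, and the lists nearest to them moved in both directions. Of 10 genes of RAS and MAPK signalling 4 fell, led by the scaffold CNKSR2 (−0.85 ± 0.08) and the exchange factor RAPGEF2 (−0.53 ± 0.08), and then RPS6KA2 (−0.35) and MAPK10 (−0.28), both kinases. DUSP5, a phosphatase of ERK, rose by 0.20, though its 7-day mean, 9.60, was not above its 3-h mean, 9.61. CNKSR2 had group means of 11.31 in control, 10.71 at 1 h, 10.50 at 3 h, 11.49 at 8 h, 11.27 at 3 days, 10.27 at 7 days and 10.14 at 14 days. It followed the members' course, with 3 h just above 7 days. Of 10 genes of insulin, IGF and FOXO signalling 4 fell. They were the receptor IGF1R (−0.65 ± 0.13), the transcription factor FOXO3 (−0.51 ± 0.11), the kinase SGK1 (−0.41) and the adaptor IRS4 (−0.21). IGF2 (0.37) and MTOR (0.25) rose. At 7 days IGF1R (8.01) and IRS4 (8.61) were above their 3-h means, 7.53 and 8.51. SGK1 (7.29) was above its 1-h mean, 6.96. FOXO3, IGF2 and MTOR kept their direction against every non-singing group mean in both singing groups. For FOXO3 the 7-day mean, 8.50 ± 0.36 (SD), did not differ from the 1-h mean, 8.51 ± 0.51, beyond their spread. The 7-day MTOR mean, 7.99 ± 0.08, likewise lay within the spread at 1 h, 7.89 ± 0.21.

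The microtubule list holds MAP7. Besides it, of the 9 measured genes NUDCD3 (−0.83 ± 0.18), NUDCD1 (−0.50 ± 0.17) and the kinesin KIF21A (−0.33 ± 0.09) fell. The dynactin subunit ACTR10 rose by 0.55 and the kinesin light chain KLC1 by 0.18. Of 17 monoamine and peptide receptors, MC4R among them, 4 fell and 6 rose, and the other 7 did not pass. MC4R is among the 4 by the rule. HTR1B (−0.48), NPY5R (−0.46) and NTSR1 (−0.44) were lower, and DRD4 (0.41), HTR2B (0.38), HTR7 (0.34) and ADRA1A (0.24) higher. Of 7 potassium and calcium channel genes and calcium sensors NCALD (−0.61), HPCAL1 (−0.58) and CACNA2D3 (−0.34) fell and KCNK5 (0.41) rose. At 7 days NCALD (8.05) was above its 1-h and 3-h means, 8.00 and 7.49. HPCAL1 (9.92) and NUDCD1 (7.72) were above their 1-h means, 9.77 and 7.30, and NUDCD1 also above its 3-h mean, 7.46. DRD4 (7.15), KLC1 (8.07) and KCNK5 (8.54) were below their 1-h means, 7.37, 8.32 and 8.86. DRD4 was also below its 3-h mean, 7.47, and KCNK5 below its 8-h mean, 8.60. KLC1 was also below its means in control (8.11) and at 3 h (8.14). HTR1B, NTSR1, HTR7, ADRA1A, CACNA2D3, KIF21A and ACTR10 kept their direction against every non-singing group mean in both singing groups. Some of these margins lay inside the spread of the birds. ACTR10 was at 10.82 ± 0.32 (SD) at 7 days, 10.79 ± 0.24 at 14 days and 10.75 ± 0.24 in control. At 7 days HTR7 (7.57) was near its 1-h mean, 7.55, and KIF21A (8.45) near its 3-h mean, 8.49.

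RNA splicing had the most genes that fell, 9 of 16, with 3 that rose. SRSF2, a splicing factor of the SR family, fell (−0.61 ± 0.10), as did NOVA1 (−0.44 ± 0.13), a neuronal splicing regulator, RBM26 (−0.44) and RBM25 (−0.37), while MBNL1 rose by 0.50, SRSF6 by 0.33 and TRA2B by 0.14. At 7 days SRSF2 (8.48) was not below its means at 1 h (8.44) and 3 h (8.45), and at 14 days it was at 8.14. RBM26 (7.73 at 7 days) was above its 1-h and 3-h means, 7.20 and 7.46. SRSF6 was at 7.93 at 7 days, below 8.12 at 1 h, and at 8.54 at 14 days. TRA2B was at 9.95 at 14 days, below its means in control (10.19) and at 1 h (10.10). NOVA1 was below every non-singing group mean in both singing groups. Its means at 14 days, 7.57 ± 0.22 (SD), and at 1 h, 7.70 ± 0.20, did not differ beyond their spread. As deposited the list split into 7 lower and 7 higher. Of 6 lipid transport genes APOH (−0.79), ABCA1 (−0.59), a cholesterol exporter, and OSBPL9 (−0.20) fell and FDFT1, of cholesterol synthesis, rose by 0.17. Of 5 ubiquitin and proteasome genes USP8 fell (−0.31) and USP7 rose by 0.25. None of these lists contains another member. At 7 days OSBPL9 (8.45) was above its 3-h mean, 8.39, and USP8 (7.46) above its 1-h mean, 7.18. USP7 (6.57 at 7 days) was below its means in control (6.61), at 1 h (6.85) and at 3 h (6.79).

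Markers of other cell types moved in both directions. Among oligodendrocyte genes TMEM63A (−1.14) fell and CLDN11 (0.18) and TF (0.16) rose. None of 4 astrocyte genes or 2 microglia genes passed on the centred scale. Of the astrocyte genes 2 were higher as deposited and after quantile normalisation, and 1 was higher and 1 lower after cyclic loess, and 1 microglia gene was higher as deposited. Of 2 endothelial and mural genes EMCN rose by 0.46, and of 7 inhibitory neuron genes DLX1 fell (−0.29) and DLX2 rose by 0.17, the same pair that was measured among new neuron genes. At 7 days TF (7.97) was not above its 3-h mean, 7.99, and DLX2 (7.927) was not above its 1-h mean, 7.930. No red blood cell gene had a matched row. Of the listed genes named here, CACNA2D3, CLDN11, DLX2, IRS4, KCNK5, KIF21A, NUDCD1, OSBPL9, RBM26, RPS6KA2, TF, TRA2B and USP8 no longer passed with the left-out 3-h bird in the fit. CACNA2D3, DLX1, GAP43, IRS4, OSBPL9, RPS6KA2 and USP8 did not pass as deposited. The part of cell composition in the members' levels was not tested.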

How the data were processed

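The authors deposited 1 table of log2 values, 1 per transcript identifier and array, for 39 arrays, whose log2 scale shows in their range. The submitters' processing notes name Affymetrix Expression Console and affy, without versions; how probes were summarised and normalised is not stated. RefSeq accessions were looked up among zebra finch genes (assembly bTaeGut7.mat) for symbols, which matched 2471 of 26061 rows, 2244 of them with an official symbol.

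Arrays were centred on their medians. limma 3.58.1 in R 4.3.3 (lmFit, eBayes) fitted the 7 group means over 38 arrays, without the second 3-h replicate, and p-values, two-sided, were adjusted by Benjamini-Hochberg over all rows; the pipeline was tested on simulated data. Replicates are labelled biological; for arrays, their number limits the precision. Members, gene lists, contrasts and the named-gene rule were chosen with earlier results of these data known. By that rule every member with a symbol is named, values are given for the 8 with the highest scores (each bird in groups of 5 or fewer, otherwise the lowest, median and highest), up to 4 genes per direction are named for a list (1 listed gene is not reported here), and up to 2 unnamed members per direction for 14 minus 7 days. Figures used Python 3.11.15 and matplotlib 3.10.9. Alternatives were other scalings, another threshold, a filter on dim rows, other samples or terms in the fit, a replicate block, and each array left out in turn.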

Additional observations from a re-analysis of the deposited data

Results flagged for a closer look

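In 8 of 84 sets of 4 to 6 birds, over the 7 groups for the 11 named members and for the members' level in each bird, 1 bird stood apart from the rest of its group by the gap test for a single outlying value, which marks about 5% of such sets by chance. GRM5 in the sixth 1-h bird was at 8.12, where the others lay between 7.32 and 7.58. JAK2 in the third 8-h bird was at 4.77, and the rest of the group lay between 5.19 and 5.35. SETD7 in the fourth 1-h bird was at 6.94, against 7.80 to 8.29. MAP7 in the fifth 8-h bird was at 8.80, against 7.44 to 7.82, and ADAMTS20 in the same bird was at 8.30, against 7.53 to 7.75. CCND2 was at 6.03 in the second control bird, where the other controls lay between 7.45 and 7.90, and at 8.07 in the third 3-h bird, against 7.28 to 7.35. RASD2 in the third 3-day bird was at 7.53, against 8.33 to 8.52. All these are centred log2 levels.

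MAP7 differed between the mean of 1 h and 3 h and the mean of 8 h and 3 days, by −0.39 log2 units (limma adjusted p = 0.028), a contrast added after the data had been seen. In it 36.7% of all rows passed. The MAP7 call was lost under several alternatives given above, among them the values as deposited and the fit without the fifth 8-h bird.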

How the results depend on the processing

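The median difference of the 150 members between singing and non-singing groups was −0.61 in the fit reported, −0.49 as deposited, −0.58 after quantile normalisation, −0.60 after cyclic loess and −0.56 with the second 3-h replicate. Of the 150 rows, 94 stayed among the highest scores as deposited, 95 with that replicate, 95 with group medians in place of means, 123 after quantile normalisation and 121 after cyclic loess, and 115 to 149 when 1 array was left out. Members called for 14 minus 7 days went from 1 to 0 at an adjusted p under 0.01, after quantile normalisation, after cyclic loess, with the second 3-h replicate and with the letter as a term, and ran from 0 to 5 with 1 array left out. For 1 h minus control, 18 became 3 at an adjusted p under 0.01, 11 as deposited, 6 with the second 3-h replicate and 3 with only the groups compared (6 to 31 with 1 array left out). For 3 h, 9 became 4 at the stricter threshold, 35 with the second replicate and 15 with only the groups compared (5 to 12). For 8 h, 12 became 7 at the stricter threshold, 6 with the second 3-h replicate, 6 with the letter and 20 with only the groups compared (9 to 13). For 3 days, 2 became 1 at the stricter threshold, 4 as deposited, 4 after cyclic loess, 0 with the second 3-h replicate, 4 without the dimmest 25% of rows, 4 with trend and robust eBayes, and 5 with the replicate block (1 to 4). The 59 members of 1 h and 3 h against 8 h and 3 days became 18 with the letter as a term (50 to 66 with 1 array left out). In that fit the arrays without a letter, 4 of 5 at 8 h and 2 of 6 at 3 days, stayed in as a level of their own. No member was called for the letter under any setting run. The causes of these shifts were not tested, except that a stricter threshold leaves fewer calls by construction.

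Over all rows, 5619 calls for 14 minus 7 days became 1834 at the stricter threshold, 2883 with the second 3-h replicate and 2663 to 9089 with 1 array left out. The 4304 at 1 h became 1092, 1939 and, with only the groups compared, 618 (1673 to 8559). The 2344 at 3 h became 796 and 5946 (1208 to 2903), and the 3365 at 8 h became 1386, 1795 and, with the letter, 729. The 696 at 3 days became 161, 230, 416 with the letter and 251 with only the groups compared (313 to 947). The 9572 for 1 h and 3 h against 8 h and 3 days became 5847 and, with the letter, 2898, and the 12164 between singing and non-singing groups became 7740 at the stricter threshold. Scaling moved the split of higher and lower calls: as deposited it was 4901 and 1307 for 14 minus 7 days (3022 and 2597 centred), 3600 and 1530 at 1 h (1789 and 2515), 1582 and 908 at 3 h (816 and 1528), 8409 and 2942 for 1 h and 3 h against 8 h and 3 days (4229 and 5343), and 10224 and 3531 for singing (5831 and 6333).

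Same-numbered replicates of different groups did not vary together: over 105 pairs r ran from −0.69 to 0.38 with a median of 0.01, and the numbers do not pair the birds. With the replicate number as a block, 1, 17, 11, 12, 5 and 60 members were called in the 6 contrasts above in that order, and MAP7 kept both calls. Of 252 results for listed genes under other scalings and with the second 3-h replicate, 221 kept their call and direction, 31 no longer passed and 0 reversed.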
